A study of Mus musculus with 15 samples.

Results

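KOCKD + RNLS, the group of RNLS knockout mice that had chronic kidney disease (CKD) and received a renalase virus, was compared with WTSHAM, the sham-operated wild-type mice, over 3 heart RNA libraries on each side. These 6 libraries were chosen by their labels from the 15 of the series, and every gene with 10 or more counts in 3 or more of the 6 was tested, which was 12655 of the 17447 genes in the deposited table. KOCKD + RNLS hearts came from male rnls-/- mice, made in the C57BL/6J strain with a TALEN nuclease aimed at exon 4 of Rnls, in which CKD was produced by removal of both poles of one kidney and then of the whole other kidney. They received AAV9-cTnT-Rnls by tail vein 2 weeks later, an adeno-associated virus that makes RNLS from the cardiac troponin T promoter and so mainly in cardiomyocytes. WTSHAM hearts came from male wild-type C57BL/6J mice of another source, which had the same operations with no kidney removed and for which no injection was described. All mice entered the study at 6 to 8 weeks of age, and hearts were taken 18 weeks after surgery. The groups therefore differed at once in genotype, kidney disease, virus and origin of the mice, whose parts in any difference between them cannot be told apart. The other 9 libraries, 3 each of WTCKD (wild type, CKD, empty vector), WTCKD + RNLS (wild type, CKD, the same virus) and KOCKD (rnls-/-, CKD, empty vector), entered the fit and are given where a gene's level in them shows where KOCKD + RNLS stood. The labels name the 3 libraries of a group as separate samples and do not say whether each came from its own mouse, so p-values measure the spread between these samples, which may be technical. Rnls was not analysed here, and genotype and virus rest on the labels alone.

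Renalase is a flavoprotein of kidney and heart that is also released into blood, and its loss in kidney disease has been linked to cardiac hypertrophy and fibrosis. A heart under load lays down collagen from its fibroblasts, recruits macrophages, and in cardiomyocytes returns to fetal muscle genes while shifting its fuel use. The comparison asks how far the treated knockout heart lay from the healthy wild-type heart, and in which of these programmes.

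Lower in the KOCKD + RNLS heart than in the sham heart were 40 of 41 interferon response genes, 14 of 21 complement genes, 15 of 22 genes of MHC class I presentation, 13 of 16 macrophage markers and 6 of 7 fibrillar collagens, against 6.61% of all genes tested. Of the endoplasmic reticulum stress list 11 of 20 genes were lower and 1 was higher, and of the genes driven by fatty acids through PPAR 9 of 19 were lower and 10 were not called. In the circadian clock 11 of 15 genes of the evening limb were higher, against 4.88% of all genes, and Arntl, their activator, was lower. All 76 genes of the respiratory chain and 18 of 21 sarcomere genes lay within 1.5-fold of sham. These shares of all genes, 6.61% lower and 4.88% higher, are the background for every count of list members against sham given below.

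Of the 12655 genes, 618 (4.88%) were higher and 837 (6.61%) were lower in KOCKD + RNLS at an adjusted p under 0.05 in the quasi-likelihood test of edgeR, with p-values adjusted after Benjamini and Hochberg, which is the meaning of "adjusted p" and of "called" throughout. The large changes were mostly falls. At over 2-fold there were 49 higher and 360 lower genes, and at over 4-fold 4 higher and 76 lower. With a change of over 25% and an unadjusted p under 0.05, the kind of threshold the study used, 929 genes (7.34%) were higher and 1470 (11.6%) lower. In 2079 genes (16.4%) all 3 KOCKD + RNLS values lay above all 3 sham values, and in 2100 (16.6%) all lay below. For 7599 genes (60.05%) the whole 95% interval of the fold change lay within 1.5-fold of sham, 279 of which were called all the same, and 3880 (30.7%) were neither called nor held within that bound. Of the genes tested, 6 passed the count minimum only through KOCKD + RNLS and 75 only through WTSHAM. The median log2 fold change of all genes was -0.005. Set against the same sham libraries, KOCKD had 719 genes (5.68%) higher and 1110 (8.77%) lower, WTCKD 86 (0.68%) and 224 (1.77%), and WTCKD + RNLS 382 (3.02%) and 643 (5.08%). Directly against KOCKD, KOCKD + RNLS had 1177 genes higher (9.3%) and 953 lower (7.53%), and against WTCKD + RNLS, the wild type with the same disease and virus, 22 higher (0.174%) and 28 lower (0.221%). Leaving out 1 of the 6 libraries left between 710 (without KOCKD + RNLS 2) and 1479 (without WTSHAM 1) called genes of 1455, with 872 without WTSHAM 2 and 829 without KOCKD + RNLS 3, and in each of these fits more genes were lower than higher.

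Each library's distance from the sham mean was taken as the root mean square difference of log2 CPM (counts scaled by the size of the library) over all genes tested, with a sham library set against the means of the others. The distances of KOCKD + RNLS were 0.470, 0.538 and 0.523, with a mean of 0.510 ± 0.036 (SD, n = 3). Sham libraries lay at 0.465, 0.346 and 0.348, so every KOCKD + RNLS library was farther out than every sham library, though the first of them only just. KOCKD, the same genotype with empty vector, had distances of 0.480, 0.539 and 0.465 and a mean of 0.495 ± 0.039, and a two-sided exact permutation test between the 2 knockout groups gave p = 0.8, where 0.1 is the smallest p that 3 against 3 allows. WTCKD + RNLS had a mean distance of 0.5004 ± 0.073 (exact p = 0.9 against KOCKD + RNLS) and WTCKD one of 0.435 ± 0.046 (exact p = 0.2). Over the 500 genes of highest variance the mean was 1.66 in KOCKD + RNLS and 1.47 in KOCKD (exact p = 0.2).

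**Figure D1:**
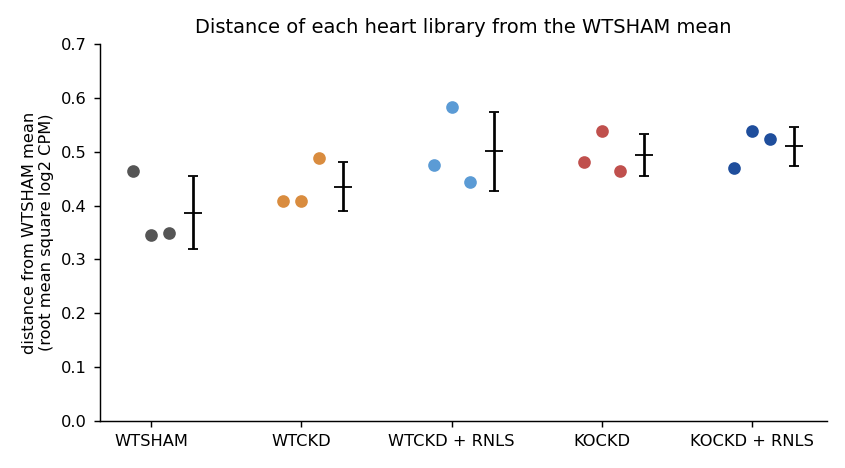
Distance of each of the 15 heart libraries from the WTSHAM mean, as root mean square difference of log2 CPM over 12655 genes, with 1 point per library and the group mean ± SD beside the points. KOCKD + RNLS libraries sit between 0.470 and 0.538, within the range of the other CKD groups (0.408 to 0.583) and above the sham libraries (0.346 to 0.465).

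The depth of the 6 libraries ran from 10570211 to 13107066 counted reads, with TMM scaling factors between 0.926 and 1.05 over all 15 libraries. KOCKD + RNLS libraries lay 0.334 to 0.354 from each other on the scale of the distances above, and sham libraries 0.344 to 0.497. WTSHAM 1 stood apart from the other sham libraries. Its level of Hspa1a, an inducible heat shock protein, was 82.4 CPM against 1.36 and 2.28. The hearts passed the check of their tissue: Myh6 and Tnnt2, which encode the adult myosin heavy chain and troponin T, had at least 457464 and 102507 counts in each of the 6 libraries, and surfactant gene Sftpc of the lung had none. The atrial markers Sln, Myl7 and Myl4 were low in KOCKD + RNLS, with no call against sham in the reported fit. All of them were called lower than sham with DESeq2 and with the 6 libraries alone. Directly against KOCKD they were called lower too (adjusted p = 0.0418, 0.0281 and 0.0285). Myl7, the atrial light chain, was at 0.325, 0.661 and 0.749 CPM in KOCKD + RNLS and at 12.7, 77.7 and 311 in WTSHAM, and Sln, an atrial calcium pump inhibitor, was at 0.0811, 0 and 0.0936 against 0.916, 15.4 and 72.8 (adjusted p = 0.0625 and 0.0829). In KOCKD + RNLS Myl7 had 4, 8 and 8 counts and Sln 1, 0 and 1, so both passed the count minimum only through the sham libraries. None of the 11 tested atrial markers was called in the reported fit, and the summed level of all 15 spanned 1981 to 3020 CPM in KOCKD + RNLS and 2000 to 2340 CPM in WTSHAM. Little of the KOCKD + RNLS sum came from Sln, Myl7 and Myl4, whose highest values there were 0.0936, 0.749 and 2.15 CPM. The list also holds Ankrd1, whose estimate was its highest (0.64). The sums therefore do not follow Sln, Myl7 and Myl4. With the mean log2 CPM of Sln, Myl7 and Myl4 in a library as a covariate, a fit chosen after seeing the data, 331 genes were called higher and 508 lower, and the counts of calls in that fit are given with the gene groups below. These genes were low in every KOCKD + RNLS library, so the covariate is tied in part to the group itself.

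Interferon response genes were lower almost throughout. They are switched on by interferons and act against viruses and intracellular microbes. Of the 41 tested members of the list, 40 were lower in KOCKD + RNLS and none higher, against 6.61% of all genes lower, with a median log2 fold change of -1.80 beside -0.005 over all genes. The one member not called was Xaf1, named after its value was seen, with 24.8, 53.3 and 26.4 CPM in sham and 21.8, 31.8 and 28.9 in KOCKD + RNLS (log2 fold change -0.34, interval -0.89 to 0.21). In WTSHAM, Irf7, the factor that amplifies the interferon response, was at 113, 180.0 and 81.4 CPM, and in KOCKD + RNLS at 26.4, 16.4 and 12.3 CPM. The groups did not overlap, and the log2 fold change was -2.76 (95% interval -3.31 to -2.21, adjusted p = 7.68e-05).

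The same order held for effectors of the response. Isg15, a ubiquitin-like modifier, was at 29.2, 27.7 and 11.9 CPM in sham and 5.52, 3.39 and 2.06 in KOCKD + RNLS (log2 fold change -2.63). Igtp, a GTPase that acts on the vacuoles of intracellular parasites, was at 44.9, 409.7 and 171 CPM in sham and 22.7, 15.3 and 19.3 in KOCKD + RNLS (log2 fold change -3.45, adjusted p = 0.000903), and its relative Irgm2 was at 68.6, 373 and 201 and 29.9, 21.2 and 24.5 (-3.08). WTSHAM 2 was the highest and WTSHAM 1 the lowest sham library for both GTPases, and no KOCKD + RNLS library reached WTSHAM 1. Zbp1, a sensor of Z-form nucleic acid, fell by 3.04 on the log2 scale, Ifi27l2a by 2.74 and Tgtp2 by 2.78, and Gbp10, a guanylate-binding protein, fell by 3.42 but was not called with the atrial covariate. Gbp10 and Tgtp2 have near-identical neighbours in the genome, and the counting may have divided reads among them. Oas3, an antiviral oligoadenylate synthetase, had at most 0.406 CPM in KOCKD + RNLS and 2.73 to 6.17 CPM in sham, and it was the 1 gene of the list that passed the count minimum only through the sham libraries. Ifit1 and Ifit3, which bind foreign RNA, fell less, by 1.89 and 1.94, with the highest KOCKD + RNLS value in KOCKD + RNLS 1 for both (24.02 and 31.6 CPM).

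The interferon genes were also low in the other CKD hearts. Irf7 was at 14.2, 15.9 and 16.7 CPM in KOCKD, 18.1, 16.6 and 15.6 in WTCKD and 18.3, 16.5 and 15.2 in WTCKD + RNLS. All 4 CKD groups are set against the same sham libraries, and each had 40 or 41 of the 41 members lower, with medians of -1.98 in KOCKD, -1.81 in WTCKD and -1.99 in WTCKD + RNLS. Against KOCKD directly, 2 members were higher and none lower in KOCKD + RNLS, with a median of 0.13. The count of 40 lower genes was 36 without WTSHAM 2, 39 without WTSHAM 1 and 35 with the atrial covariate.

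The promoters of these genes are shown because the interferon factors act through a short sequence that can be searched. RefSeq promoters of GRCm38.p6, 300 bases each and ending 50 bases after the start of transcription, were matched by symbol, with capitals marking every match to GAAANNGAA on either strand, the core of the interferon-stimulated response element.
Isg15, chr4:156200769-156201068, minus strand: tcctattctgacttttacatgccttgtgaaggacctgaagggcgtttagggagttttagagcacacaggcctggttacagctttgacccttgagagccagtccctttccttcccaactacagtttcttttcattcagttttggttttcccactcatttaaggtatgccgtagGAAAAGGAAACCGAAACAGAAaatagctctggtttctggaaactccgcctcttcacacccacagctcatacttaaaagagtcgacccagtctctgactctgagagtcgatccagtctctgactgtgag
Igtp, chr11:58199306-58199605, plus strand: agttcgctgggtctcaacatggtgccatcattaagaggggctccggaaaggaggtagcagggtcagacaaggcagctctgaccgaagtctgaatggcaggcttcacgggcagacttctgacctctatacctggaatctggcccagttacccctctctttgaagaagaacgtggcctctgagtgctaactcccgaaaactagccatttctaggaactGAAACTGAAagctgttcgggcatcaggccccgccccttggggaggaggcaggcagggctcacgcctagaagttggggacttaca
The Isg15 promoter held 3 overlapping matches, the first of them 78 bases before the start, and Igtp held 1 at 34 bases before it. A promoter was found for 26 of the 40 interferon genes that were lower, and 21 of the 26 (80.8%) held a match, against 881 of the 10091 tested genes with a promoter (8.73%) and 2812 of the 32851 promoters searched (8.56%). Promoters on 1 chromosome were left out of the search, so its genes count as having none. Among all genes called lower the share was 17.8% (114 of 642), and among those called higher 7.21% (36 of 499). A match shows that the letters are there, not that a factor was bound.

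**Figure D2:**
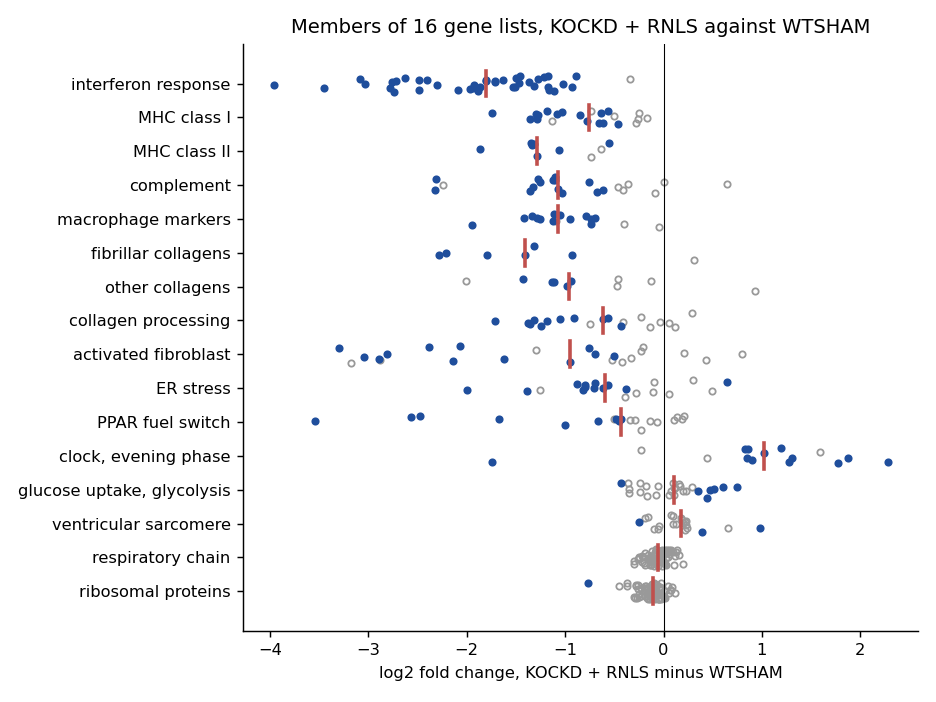
Log2 fold change of KOCKD + RNLS minus WTSHAM (x axis) for every tested member of 16 gene lists (rows), with filled blue points for genes at an adjusted p under 0.05, open grey points for the rest and a red bar at the list median. Interferon genes lie on the left with a median of -1.80, evening clock genes on the right with 1.02, and respiratory chain genes within a narrow band around -0.05.

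Antigen presentation and innate immunity were lower too. In a whole heart, fewer cells of a type and less RNA per cell cannot be told apart, which holds for every cell-linked list here. MHC class I molecules show peptides from inside the cell to T cells, and 15 of 22 tested genes of this pathway were lower and none higher (median -0.76), with 10 lower under the atrial covariate. B2m, their shared light chain, was at 497, 821 and 526 CPM in sham and 327, 246 and 325 CPM in KOCKD + RNLS (log2 fold change -1.04, adjusted p = 0.00394). H2-D1 was at 343, 541 and 393 and 215, 173 and 215 CPM (-1.08), though reads of H2 genes may be shared among close copies. Psmb8, a subunit of the immunoproteasome, fell by 1.29 and Tap1, a subunit of the peptide transporter, by 1.75, the latter with no call under the atrial covariate. MHC class II genes, which belong to professional antigen-presenting cells, had 7 of 9 members lower (median -1.29). The groups overlapped for Cd74. It encodes the class II chaperone and was at 119, 275 and 237 CPM in sham and 116, 65.7 and 121 in KOCKD + RNLS (adjusted p = 0.0145). Only 1 of the 9, Ctss, a protease that trims Cd74, was called without WTSHAM 2, without KOCKD + RNLS 2 or with the atrial covariate, and 4 were called without KOCKD + RNLS 1. The call of Cd74 was also lost without WTSHAM 3. Ctss itself fell from 42.2, 57.9 and 43.5 to 16.2, 10.5 and 12.7 CPM, with no overlap (log2 fold change -1.86, adjusted p = 0.000149).

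Complement, the plasma and tissue proteins that tag debris and microbes, had 14 of 21 members lower (median -1.07). The 3 chains of C1q, made in the heart largely by macrophages, moved together. C1qa was at 95.5, 96.6 and 84.8 CPM in sham and 51.7, 38.9 and 36.2 in KOCKD + RNLS, a log2 fold change of -1.12 (adjusted p = 0.000231), and C1qb and C1qc changed by -1.10 and -1.03. C4b was at 115, 112 and 95.8 CPM against 23.6, 22.4 and 18.8 (-2.31, adjusted p = 0.000479). C3, the hub of the cascade, was not called at 444, 312 and 378 CPM against 331, 274 and 220.1 (log2 fold change -0.46, interval -0.93 to 0.01). Of 16 tested macrophage markers, 13 were lower (median -1.07), and their sum ran from 562 to 744 CPM in sham and from 321 to 405 CPM in KOCKD + RNLS. Adgre1, which encodes the macrophage antigen F4/80, was at 13.2, 20.6 and 21.95 CPM in sham and 9.57, 6.53 and 5.99 in KOCKD + RNLS (-1.33, adjusted p = 0.0023). Cd68, a lysosomal protein of macrophages, was at 20.7, 16.8 and 18.05 against 9.82, 5.37 and 5.43 (-1.42), and Fcgr1, an activating Fc receptor, at 11.3, 9.04 and 6.19 against 2.03, 2.31 and 2.53 (-1.95). Lyve1, of the resident macrophage and of lymph vessels, fell less, by 0.74 (adjusted p = 0.044), and lost its call without WTSHAM 1, WTSHAM 2 or any one KOCKD + RNLS library. With the atrial covariate, 9 complement genes and 7 macrophage markers were lower, and Lyve1 was not called. Against the same sham libraries, KOCKD had 14 macrophage markers and 11 complement genes lower. WTCKD had 1 and 2 lower, and WTCKD + RNLS 9 and 12. Of all genes, 8.77%, 1.77% and 5.08% were lower in these groups. Directly against KOCKD, 2 macrophage markers and 3 complement genes were lower in KOCKD + RNLS, beside 7.53% of all genes. Cd3e, which marks T cells, had at most 7 counts in any of the 6 libraries.

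Of 26 tested chemokines and receptors, 11 were lower and 1 higher (median -0.70), and 7 were lower and 1 higher with the atrial covariate. Ccl2, which draws monocytes, was at 6.75, 6.25 and 3.32 CPM in sham and 0.974, 0.496 and 1.78 in KOCKD + RNLS (log2 fold change -2.34, adjusted p = 0.00392), and its receptor Ccr2 was at 4.42, 5.35 and 4.71 against 2.11, 2.06 and 2.53 (-1.11), a call lost with the atrial covariate. Cx3cl1, the membrane-bound chemokine of endothelium, was at 16.995, 23.8 and 18.4 against 13.5, 11.5 and 12.2 (-0.67). The endothelial marker list itself had 4 of 15 lower, 2 without WTSHAM 2 or without any one KOCKD + RNLS library, and 11 within 1.5-fold, and 4 were lower with the atrial covariate. Its largest fall was Cldn5, the tight junction claudin, at 16.1, 19.4 and 17.9 CPM in sham, 9.74, 7.02 and 8.33 in KOCKD + RNLS and 37.98, 24.7 and 25.5 in KOCKD, and it lost its call (adjusted p = 0.0326) in every fit without 1 library but that without WTSHAM 1. Cldn5 was not called with the atrial covariate either. Pecam1, an adhesion molecule of all endothelium, fell by 0.35 (adjusted p = 0.0202), a call lost without WTSHAM 1, KOCKD + RNLS 2 or KOCKD + RNLS 3.

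Collagen genes formed the other large group. Fibrillar collagens are the tension-bearing fibres that fibroblasts deposit in scar and in interstitial fibrosis, and 6 of 7 tested chains were lower in KOCKD + RNLS, with a median of -1.41. Col3a1, the chain of type III collagen, was at 187, 395 and 373 CPM in sham and 80.6, 59.6 and 55.95 in KOCKD + RNLS. That was a log2 fold change of -2.28 (interval -2.80 to -1.76, adjusted p = 0.000131), and every KOCKD + RNLS value lay below every sham value. Col1a1 was at 111, 253 and 177 against 59.5, 46.1 and 50.6 CPM (-1.80) and Col1a2, the other chain of type I collagen, at 162, 275 and 215 against 106, 80.2 and 74.8 (-1.32). Per length, in the deposited FPKM, Col3a1 had a mean of 58.9 ± 22.6 (SD, n = 3) in sham and 11.8 ± 2.36 in KOCKD + RNLS, and Col1a2 had 42.8 ± 12.3 and 16.8 ± 3.14, so that the order of the chains was reversed between the groups. Col5a3 fell by 2.21, Col5a2 by 1.41 and Col5a1 by 0.93, all of them type V chains that seed fibrils. The one fibrillar chain not called was Col27a1, named after its value was seen (log2 fold change 0.30, interval -0.31 to 0.92). The 6 calls held without each library in turn, and 5 held with the atrial covariate, under which Col5a1 was not called.

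Where KOCKD + RNLS stood against the other CKD hearts differed among collagens. Col3a1 was at 248, 168 and 170.1 CPM in KOCKD, 239, 303 and 239.8 in WTCKD and 67.1, 77.6 and 92.4 in WTCKD + RNLS, and was lower in KOCKD + RNLS than in KOCKD by 1.58 on the log2 scale (adjusted p = 0.00162). For Col1a2 the difference from KOCKD was -0.36 (interval -0.75 to 0.02, adjusted p = 0.181), while KOCKD was itself lower than sham by 0.96 (adjusted p = 0.00451). Col4a1, a network collagen of basement membranes, was at 478, 700.0 and 652 CPM in sham, 323, 313 and 280.3 in KOCKD + RNLS and 595, 536 and 463 in KOCKD (-0.998 against sham, adjusted p = 0.00086). Of 18 basement membrane genes 4 were lower, and Col4a2 at -0.68 was another of them. Their number was 8 without WTSHAM 1 and 2 without WTSHAM 2, without KOCKD + RNLS 2 or with the atrial covariate. Among 10 other collagens 5 were lower (3 with the atrial covariate), including Col6a1 (-0.99) and Col6a3 (-1.43), chains of the beaded type VI filaments.

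Enzymes that process and crosslink collagen had 11 of 19 members lower, none higher and a median of -0.62, and 8 were lower with the atrial covariate. Lox, the lysyl oxidase that links fibres, was at 7.16, 7.004 and 6.93 CPM in sham and 1.78, 2.31 and 2.34 in KOCKD + RNLS (log2 fold change -1.71, adjusted p = 0.00193), and Loxl1 was at 50.6, 72.2 and 59.7 against 26.8, 22.6 and 21.8 (-1.36, adjusted p = 0.000231). Genes of activated fibroblasts and the matricellular proteins, which signal from the matrix and carry no load, had 12 of 23 lower (median -0.95). Cilp, a matrix protein of cartilage and of fibrotic heart, had 40.6, 82.8 and 43.5 CPM in sham and 7.79, 3.88 and 5.24 in KOCKD + RNLS, a log2 fold change of -3.30 (adjusted p = 0.000231). Thbs1, which releases latent TGF-beta, had 42.1, 69.7 and 37.4 and 6.896, 4.96 and 6.18 CPM (-3.05, adjusted p = 0.00155). Postn, a marker of activated cardiac fibroblasts, had 64.8, 111 and 73.3 and 31.1, 23.5 and 26.4 CPM (-1.62), and Tnc, which appears in injured myocardium, had 2.999, 4.37 and 3.61 and 0.243, 0.578 and 0.655 CPM (-2.89). The groups were apart for these 4 genes. Tnc had 36, 58 and 49 counts in sham and 3, 7 and 7 in KOCKD + RNLS, so it passed the count minimum only through the sham libraries, as did 1 other of the 12 lower genes of this list, and a difference of such a gene follows in part from the minimum itself. Fn1, fibronectin, was at 70.6, 127 and 89.1 CPM in sham and 77.4, 64.9 and 57.3 in KOCKD + RNLS, where the groups overlapped (log2 fold change -0.52, interval -0.94 to -0.10, adjusted p = 0.101). This list had 4 lower genes without WTSHAM 2, 6 without KOCKD + RNLS 2 or 3, and 5 with the atrial covariate.

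Of 17 matrix proteases and inhibitors, 8 were lower, a count that was 4 without WTSHAM 2, 5 without WTSHAM 3 and 5 with the atrial covariate. Mmp3, the stromelysin, was at 20.5, 13.2 and 9.06 CPM in sham and 1.14, 1.98 and 1.68 in KOCKD + RNLS (-3.14, adjusted p = 0.00126). Timp1, an inhibitor of such proteases, was at 7.58, 7.91 and 3.46 and 1.298, 0.661 and 1.68 (-2.38). Adamts4, an aggrecanase, had 1.67, 3.39 and 3.61 CPM in sham and was at 0.0811, 0 and 0 in KOCKD + RNLS, where 1 library held a single read, so that it too passed the count minimum only through sham. Timp3 was at 441, 375 and 282 CPM against 451, 461 and 457 (adjusted p = 0.155) and at 226, 243 and 255 in KOCKD, from which KOCKD + RNLS differed by 0.92 (adjusted p = 0.00162). The TGF-beta list, whose ligands drive fibroblasts to make collagen, had 2 of 18 lower (1 with the atrial covariate) and 12 within 1.5-fold. Tgfb1 was at 30.7, 41.7 and 33.6 CPM in sham and 37.1, 36.3 and 40.98 in KOCKD + RNLS (log2 fold change 0.11, interval -0.12 to 0.34). The 2 lower genes, Smad3 (-0.48) and Tgfb3 (-0.43), were not called with the atrial covariate and lost their calls in several fits without 1 library. Smad3 lost its call without WTSHAM 3, KOCKD + RNLS 2 or KOCKD + RNLS 3, and Tgfb3 kept its call in that series of fits only without WTSHAM 3. Of the general fibroblast markers, 5 of 12 were lower, 3 without WTSHAM 2 or KOCKD + RNLS 2 and 2 with the atrial covariate, and the median was -0.51. This list also holds Col1a1, already counted among the fibrillar collagens. Dcn, decorin, was at 779, 904 and 754 CPM in sham and 588, 520.1 and 551 in KOCKD + RNLS (-0.56, adjusted p = 0.0202). Its call was lost without WTSHAM 2, KOCKD + RNLS 2 or KOCKD + RNLS 3 and with the atrial covariate. Pdgfra, the receptor that defines the cell type, was at 53.2, 68.5 and 70.9 CPM in sham and 47.9, 48.7 and 40.3 in KOCKD + RNLS (-0.49, adjusted p = 0.0856).

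**Figure D3:**
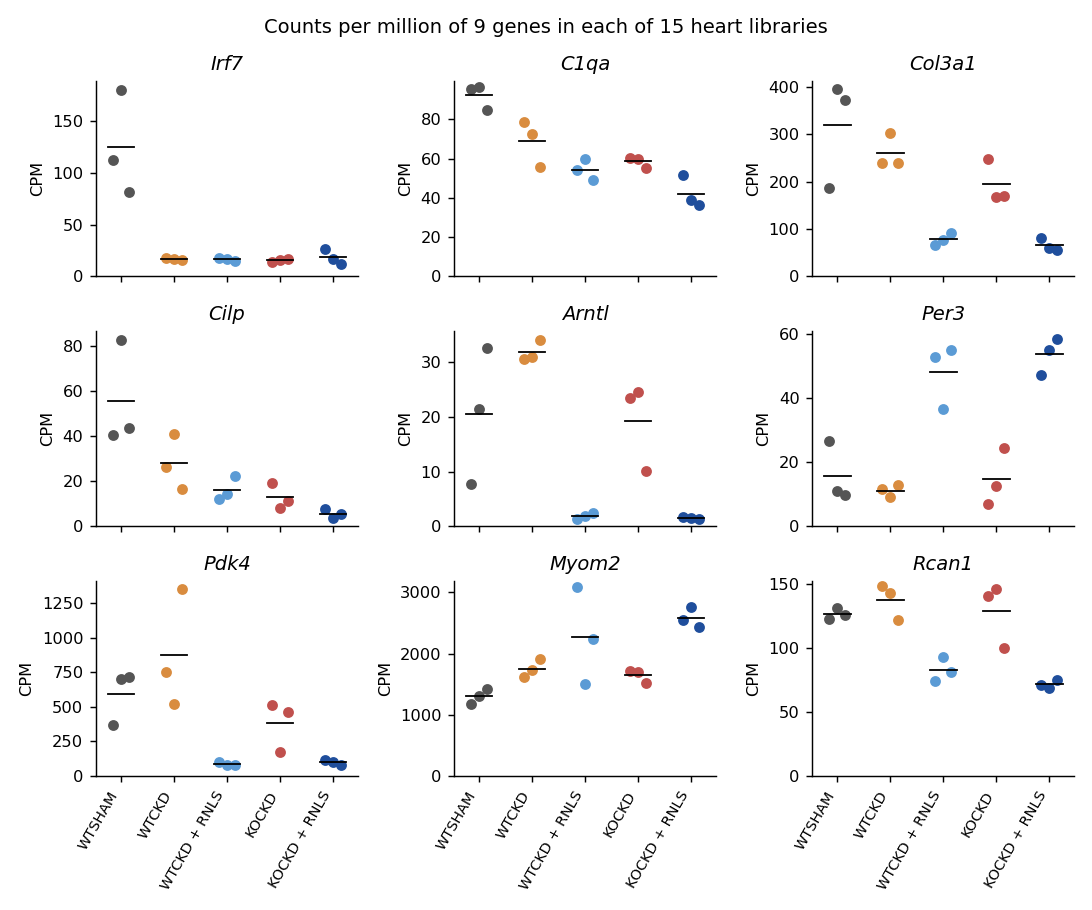
CPM (y axes, linear from 0) of 9 genes in each of the 15 heart libraries, with 1 point per library and a line at the group mean. Irf7 had a mean of 18.3 CPM in KOCKD + RNLS against 125 in sham, and was also low in the other CKD groups, whereas Col3a1, Arntl, Per3, Pdk4 and Rcan1 sat at like levels in the 2 groups that received AAV9-cTnT-Rnls and apart from the 3 groups that did not.

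The circadian clock differed in a pattern of opposite limbs. ARNTL (BMAL1) with CLOCK activates the PER genes and the PAR bZIP factors, and these in turn rise as ARNTL falls over the day. Arntl had 7.66, 21.4 and 32.6 CPM in sham and 1.62, 1.49 and 1.404 CPM in KOCKD + RNLS, which was the largest fall of any gene meeting the naming rule (log2 fold change -3.77, interval -4.79 to -2.74, adjusted p = 0.000277). Npas2 and Clock, partners of ARNTL, changed by -1.67 and -0.82. Npas2 was not called without WTSHAM 3 or KOCKD + RNLS 2, with the 6 libraries alone or with the atrial covariate. Of the 15 genes of the evening limb, 11 were higher and 1 was lower, against 4.88% of all genes higher, with a median of 1.02. Per3 was at 26.6, 10.9 and 9.87 CPM in sham and 47.3, 55.1 and 58.4 in KOCKD + RNLS (1.77, adjusted p = 0.00519), and Per1 at 64.4, 18.4 and 30.6 against 93.4, 95.8 and 90.9 (1.31, adjusted p = 0.024). Per1 kept its call in the fits without 1 library only without WTSHAM 1. Per2, the other PER gene, was not called, at 33.9, 5.197 and 4.64 CPM against 39.7, 41.2 and 49.3 (1.59, interval 0.46 to 2.72, adjusted p = 0.0659). Ciart, a repressor of ARNTL, rose most of all named genes, from 9.41, 1.66 and 0.516 to 15.1, 17.3 and 22.7 CPM (2.28, adjusted p = 0.0216), Dbp went from 85.4, 40.3 and 13.3 to 122, 193 and 194 (1.88, adjusted p = 0.0352) and Tef from 207, 94.1 and 75.4 to 279, 288 and 295 (1.20). WTSHAM 1 was nearest to KOCKD + RNLS for each of these genes. Nr1d1, which encodes REV-ERB alpha, was at 66.1, 168 and 84.1 CPM in sham and 60.4, 93.4 and 119 in KOCKD + RNLS with overlapping groups (log2 fold change -0.23, interval -0.98 to 0.53). Cdkn1a, a cell cycle inhibitor with clock control, was the one lower gene of the list, at 47.2, 41.6 and 44.1 against 17.6, 11.6 and 10.3 CPM (-1.74).

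Clock levels like those of KOCKD + RNLS were found in the other group with the virus. Per3 was at 6.91, 12.4 and 24.5 CPM in KOCKD and 11.5, 9.12 and 12.8 in WTCKD, and at 52.9, 36.6 and 55.1 in WTCKD + RNLS. KOCKD had no evening gene called in either direction against the same sham libraries (median 0.17), and KOCKD + RNLS had 10 higher and 2 lower against KOCKD, where 9.3% of all genes were higher and 7.53% lower. The time of day at which hearts were taken was not given in the sources used here. The count of 11 higher genes was 6 without WTSHAM 2, WTSHAM 3 or KOCKD + RNLS 2, and 5 with the atrial covariate. In these 4 fits Per3, Tef and Arntl were called and Per1, Dbp and Ciart were not.

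Promoters of higher clock genes are given for the elements through which the clock acts, the E-box CACGTG that ARNTL and CLOCK bind and the D-box TTATGTAA of the PAR bZIP factors, with matches on either strand in capitals.
Ciart, chr3:95882179-95882478, minus strand: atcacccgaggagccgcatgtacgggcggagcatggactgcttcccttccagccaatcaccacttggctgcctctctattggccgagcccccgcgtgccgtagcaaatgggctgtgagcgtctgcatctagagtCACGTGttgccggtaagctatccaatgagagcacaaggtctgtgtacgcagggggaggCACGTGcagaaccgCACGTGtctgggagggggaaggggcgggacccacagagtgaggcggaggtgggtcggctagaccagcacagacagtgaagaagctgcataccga
Per3, chr4:151044616-151044915, minus strand: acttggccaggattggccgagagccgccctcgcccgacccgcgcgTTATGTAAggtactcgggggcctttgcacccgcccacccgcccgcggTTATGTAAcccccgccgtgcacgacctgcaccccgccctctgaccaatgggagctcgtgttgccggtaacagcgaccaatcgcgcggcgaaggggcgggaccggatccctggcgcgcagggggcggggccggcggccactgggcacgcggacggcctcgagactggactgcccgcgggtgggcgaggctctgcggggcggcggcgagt
Ciart held 3 E-boxes and Per3 held 2 D-boxes. Of the 10 higher evening genes with a promoter, 4 had an E-box (Per1, Tef, Ciart and Bhlhe41) and 1 a D-box (Per3), against 1183 (11.7%) and 66 (0.654%) of the 10091 tested genes. Over the 32851 promoters searched the shares were 7.15% and 0.938%. Among genes called higher 17.2% (86 of 499) had an E-box, and among genes called lower 6.85% (44 of 642). For the D-box these shares were 0.802% (4 of 499) and 0.779% (5 of 642), close to that of the tested genes.

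A part of the genes of fat use that PPAR controls was lower. PPAR factors, bound by fatty acids, switch on fat use in muscle, and 9 of 19 of their targets and partners were lower, none higher and 7 within 1.5-fold (median -0.43), with 10 lower under the atrial covariate. Fat cell markers lay low beside them. All 8 tested adipocyte markers had lower estimates and none was called (median -1.95), the summed level of the 12 counted ran from 853 to 1030.2 CPM in sham and from 700.2 to 834 CPM in KOCKD + RNLS, and the defining Adipoq and Plin1 had 0 counts in at least 1 of the 6 libraries and at most 31 and 46. Little of that sum therefore came from Adipoq and Plin1. The part of fat cells in the fat use genes was not tested. Pdk4, the kinase that shuts pyruvate out of the mitochondrion, was at 366, 704 and 717 CPM in sham and 119, 105 and 78.04 in KOCKD + RNLS (log2 fold change -2.57, adjusted p = 0.000725), and it was at 515, 174 and 465 in KOCKD and 102, 77.2 and 76.5 in WTCKD + RNLS. Angptl4, an inhibitor of lipoprotein lipase, was at 7.16, 24.6 and 11.3 against 1.54, 0.909 and 1.22 CPM (-3.54, adjusted p = 0.00392), and Acot1, an acyl-CoA thioesterase with a close copy in Acot2, at 10.7, 15.8 and 22.2 against 3.89, 2.15 and 2.71 (-2.47). Cd36, the fatty acid carrier of the membrane, was at 2212, 1865 and 1946 CPM in sham and 1486, 1490.2 and 1491 in KOCKD + RNLS (-0.43, adjusted p = 0.00331), a small fall with very close replicates. Ucp3, a mitochondrial carrier, fell by 1.67 (adjusted p = 0.028), a call lost without each library but WTSHAM 1 and with the atrial covariate. The enzymes of fatty acid oxidation themselves were mostly held, with 17 of 20 within 1.5-fold and 2 lower (9 with the atrial covariate and 4 with the gene length offsets described below), among them Acadvl, the first step for long chains (-0.43, adjusted p = 0.013), which was not called without KOCKD + RNLS 2.

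Of 27 genes of glucose uptake and glycolysis, 6 were higher and 1 lower, with 3 higher without WTSHAM 2, and 2 higher and 2 lower with the atrial covariate. Slc2a1 and Slc2a4, the glucose carriers GLUT1 and GLUT4, were at 23.7, 13.2 and 21.9 and 643, 476 and 499.6 CPM in sham and at 31.9, 34.5 and 32.5 and 722, 754 and 763 in KOCKD + RNLS (log2 fold changes 0.75 and 0.47, adjusted p = 0.00514 and 0.008), and Slc2a4 was not called with the atrial covariate. Pdk2, the constitutive pyruvate dehydrogenase kinase of heart, was at 611, 561 and 613 CPM in sham and 869, 899 and 950.4 in KOCKD + RNLS (0.61, adjusted p = 0.000251), and Gapdh, a glycolytic enzyme often used as a reference gene, was at 233, 216 and 219 and 317, 319 and 314 (0.51, adjusted p = 0.0164). Gapdh lost its call without WTSHAM 2, WTSHAM 3 or KOCKD + RNLS 2 and with the atrial covariate. Eno3, the muscle enolase, was the lower one, at 1255, 1494 and 1421 against 1195, 977 and 924 CPM (-0.43, adjusted p = 0.0259), and it was not called without WTSHAM 2, WTSHAM 3, KOCKD + RNLS 2 or KOCKD + RNLS 3. In the list of nuclear-encoded respiratory chain subunits none of 76 was called and all 76 lay within 1.5-fold of sham (median -0.05), and 2 were lower with the atrial covariate. With the gene length offsets described below 6 were higher and 1 lower, and with the 6 libraries alone 5 were lower. Sdha, the catalytic subunit of complex II, was at 2158, 2005 and 2248 CPM in sham and 2337, 2342 and 2342 in KOCKD + RNLS, and Cox5a, of complex IV, at 676, 677 and 644 and 628, 633 and 656. In the same list KOCKD had 28 genes higher than sham (median 0.29, against 5.68% of all genes), and KOCKD + RNLS had 49 lower than KOCKD (median -0.35, against 7.53%). Ribosomal proteins were alike, with 75 of 79 within 1.5-fold of sham and Rps18 the one called (3 were lower with the atrial covariate), at 208, 203 and 187 CPM in sham and 97.7, 92.9 and 161 in KOCKD + RNLS, with many processed copies in the genome that may share its reads. With the 6 libraries alone 3 ribosomal protein genes were lower, and with the gene length offsets 2 were higher and 2 lower.

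Gene length moved with the comparisons that involve KOCKD. Across deciles of gene length the median log2 fold change against sham ran from -0.09 in the shortest genes to 0.04 in the longest for KOCKD + RNLS, while for KOCKD it ran from 0.24 to -0.28, and for KOCKD + RNLS against KOCKD from -0.32 to 0.33. The part of this trend in the differences between the knockout groups was not tested. With each library's own trend on length taken out through offsets, a fit chosen after seeing the data, 762 genes were higher and 984 lower against sham, and 1408 of the 1455 calls were kept in their direction.

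**Figure D4:**
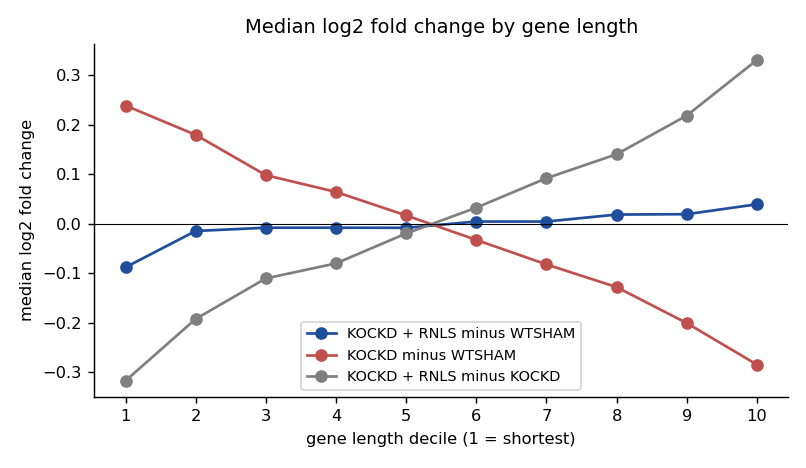
Median log2 fold change (y axis) over 10 deciles of gene length (x axis, 1247 genes each) for 3 comparisons. KOCKD + RNLS minus WTSHAM stays between -0.09 and 0.04, while the lines that involve KOCKD slope in opposite directions.

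Most contractile genes of the ventricle lay near sham. All 8 cardiomyocyte markers and 18 of 21 sarcomere genes lay within 1.5-fold of it, and 2 sarcomere genes were higher and 1 lower. With the gene length offsets 8 sarcomere genes and 3 cardiomyocyte markers were higher, and 1 sarcomere gene was higher without WTSHAM 2, WTSHAM 3 or KOCKD + RNLS 2 or with the atrial covariate. Myom2, an M-band protein, was at 1178, 1309 and 1429.6 CPM in sham and 2549.9, 2757 and 2429 in KOCKD + RNLS (log2 fold change 0.98, adjusted p = 0.00199). Mybpc3, a regulator of myosin, was at 4811, 4003 and 4205 against 5539, 6266 and 5221 (0.39, adjusted p = 0.015). Its call was lost without WTSHAM 2, WTSHAM 3 or KOCKD + RNLS 2 and with the atrial covariate. Csrp3, a stress sensor of the Z-disc, fell by 0.25 (adjusted p = 0.0471), a call lost without each of the 6 libraries in turn and with the atrial covariate. Of the hypertrophy list, 1 of 12 genes was called, which was lower. Without WTSHAM 3, with DESeq2 or with the 6 libraries alone 3 were lower, 2 were lower and 1 higher without WTSHAM 1, and with the atrial covariate 1 was lower and 1 higher. Rcan1, a calcineurin inhibitor whose transcript rises with calcineurin activity, was at 123, 132 and 126 CPM in sham and 70.99, 68.97 and 75.2 in KOCKD + RNLS (-0.82, adjusted p = 0.000725), with 141, 147 and 100.3 in KOCKD. Nppb, the B-type natriuretic peptide of stretched myocardium, was at 187, 98.4 and 128 CPM in sham, 115, 155 and 127 in KOCKD + RNLS and 193, 264 and 216 in KOCKD. Its log2 fold change against sham was -0.05 (interval -0.61 to 0.50), which reached past 1.5-fold on the lower side only. Nppa, its atrial relative, was at 118, 240.0 and 409 against 149, 283 and 126 CPM (interval -2.10 to 1.18), and Acta1, fetal skeletal actin, at 1738, 788 and 460.1 against 1225, 1103 and 597 (interval -1.30 to 1.246). Myh7, the slow fetal myosin, was at 853, 184 and 169 CPM in sham and 1105, 2069 and 947 in KOCKD + RNLS, where no value overlapped but WTSHAM 1 lay far above the other sham libraries (log2 fold change 1.77, interval 0.33 to 3.22, adjusted p = 0.106). Without WTSHAM 1, Myh7 passed the test (log2 fold change 2.96, adjusted p = 0.00966).

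A few calcium and electrical genes were called. Of 19 calcium handling genes, 4 were higher, 1 was lower and 14 lay within 1.5-fold, and of 22 ion channel genes 3 were higher and 1 lower. Without WTSHAM 2 or KOCKD + RNLS 2, 1 gene of each list was higher, without KOCKD + RNLS 3, 2 calcium genes and 1 channel gene were, without WTSHAM 3 or KOCKD + RNLS 1, 2 genes of each list were, and with the atrial covariate none of the calcium genes and 2 of the channel genes were. With the gene length offsets 2 calcium genes were higher and 2 lower. Kcnip2, a subunit of the fast repolarising potassium current, was at 208, 159 and 171 CPM in sham and 256, 289.8 and 288 in KOCKD + RNLS (0.63, adjusted p = 0.00235). Cacna1c, the L-type calcium channel, was at 409, 347 and 367 against 478, 500.2 and 481 (0.38, adjusted p = 0.0383). Cacna1c lost its call with the atrial covariate and without each library but WTSHAM 1. Ryr2 and Atp2a2, the release channel and the pump of the sarcoplasmic reticulum, changed by -0.13 and -0.22 (adjusted p = 0.381 and 0.0633).

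Genes of endoplasmic reticulum stress, chaperones and others that the unfolded protein response induces, had 11 of 20 members lower and 1 higher (median -0.59). Against the same sham libraries KOCKD had 4 lower (median -0.18), WTCKD 9 (-0.45) and WTCKD + RNLS 10 (-0.45), with 1 higher in each. Of all genes, 8.77%, 1.77% and 5.08% were lower in these groups. Directly against KOCKD, 10 were lower in KOCKD + RNLS, beside 7.53% of all genes. Hspa5, the chaperone BiP, was at 727, 671 and 981 CPM in sham and 464, 448 and 442 in KOCKD + RNLS (log2 fold change -0.81, adjusted p = 0.000358). Manf, a secreted stress factor, was at 48.2, 39.8 and 76.5 against 22.3, 22.1 and 18.2 (-1.39, adjusted p = 0.000387), and Sdf2l1, a BiP cofactor, at 9.66, 6.18 and 11.5 against 2.596, 1.8998 and 2.34 (-1.99). The groups were apart for all 3. With the atrial covariate 9 genes of the list were lower and none was higher. Herpud1, a component of protein degradation at the reticulum, was the higher one, at 303, 176 and 195 against 393, 334 and 326 CPM (0.64, adjusted p = 0.0286), and it kept its call in the fits without 1 library only without WTSHAM 1. Of 22 cytosolic chaperones and heat or cold shock genes, 8 were lower and 2 higher. The lower count was 13 without WTSHAM 2, 11 without WTSHAM 3, 5 without WTSHAM 1 or KOCKD + RNLS 2, 3 without KOCKD + RNLS 1 or 3, and 10 with the atrial covariate. Hsp90aa1 was at 467, 149.7 and 220.2 CPM in sham and 106, 122 and 114 in KOCKD + RNLS (-1.29, adjusted p = 0.00636), and WTSHAM 1 was the highest library for it, for Hspb1 and for Hsph1. Without WTSHAM 1 its log2 fold change was -0.70 (adjusted p = 0.00638). The 2 higher genes were the cold-inducible RNA-binding proteins Cirbp (27.5, 38.4 and 30.5 CPM in sham, 60.3, 65.1 and 64.4 in KOCKD + RNLS, log2 fold change 0.98) and Rbm3 (0.50), the latter not called without WTSHAM 1, WTSHAM 3 or KOCKD + RNLS 3.

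The 12 largest rises among called genes with a mean log2 CPM over 1 and no overlap were Ciart, Fam81a, Dbp, Per3, Tll2, Eif3j2, Robo2, Mthfd1l, Rasd2, Cys1, Cenpf and Per1. Fam81a was at 6.08, 9.57 and 10.02 CPM in sham and 29.05, 37.6 and 29.1 in KOCKD + RNLS (1.89, adjusted p = 0.000964), with 21.5, 38.3 and 15.7 in KOCKD and 7.25, 10.4 and 15.1 in WTCKD + RNLS. Cys1, a protein of the primary cilium, was at 6.91, 4.37 and 2.87 against 13.4, 11.2 and 10.6 (1.32, adjusted p = 0.0028), and Rasd2, a small GTPase, at 5.33, 4.14 and 4.05 against 9.25, 13.6 and 12.2 (1.37). Mthfd1l, a mitochondrial folate enzyme, was at 1.999, 1.36 and 1.3998 against 3.65, 3.96 and 5.05 (1.41), and Tll2, a protease of the tolloid family, at 0.833, 1.66 and 1.252 against 4.14, 2.64 and 4.58 (1.58). Cenpf, a kinetochore protein, was at 12.996, 14.5 and 20.8 against 40.8, 43.3 and 36.7 (1.32), whereas Top2a, the topoisomerase of dividing cells, was at 1.75, 5.498 and 5.304 against 0.974, 0.743 and 0.842 (-2.29, adjusted p = 0.00365), the opposite direction. Tll2 lost its call without WTSHAM 1, WTSHAM 3, KOCKD + RNLS 1 or KOCKD + RNLS 3, Eif3j2 without each library but WTSHAM 1, and Robo2 and Cenpf without WTSHAM 2 or KOCKD + RNLS 2. Tll2 and Eif3j2 were not called with the atrial covariate either. Robo2 rose by 1.42, and Eif3j2, which has a near-identical copy in Eif3j1, by 1.43. Of the FoxO targets, which govern muscle protein breakdown, 5 of 18 were higher (2 without WTSHAM 2 or KOCKD + RNLS 1, and 3 without KOCKD + RNLS 3 or with the atrial covariate), among them Foxo3 (144, 98.2 and 101 CPM in sham, 182, 195 and 166 in KOCKD + RNLS, 0.66) and Fbxo32, the ubiquitin ligase atrogin-1 (0.32). Fbxo32 kept its call only without WTSHAM 3 among the fits without 1 library, and was not called with the atrial covariate.

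The 24 genes with the largest changes were followed into the direct comparisons, which share the KOCKD + RNLS libraries by which the 24 were chosen. Directly against KOCKD, KOCKD + RNLS differed in 7 rises (Ciart, Per3, Tll2, Mthfd1l, Rasd2, Cys1 and Per1) and 2 falls (Arntl and Angptl4). The 7 genes of interferon-inducible families among the falls (Igtp, Gbp10, Irgm2, Zbp1, Tgtp2, Irf7 and Ifi27l2a) had adjusted p-values between 0.059 and 0.82 against KOCKD. Against WTCKD + RNLS, Fam81a was the one called of the 24 (1.54, adjusted p = 0.0394).

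**Figure D5:**
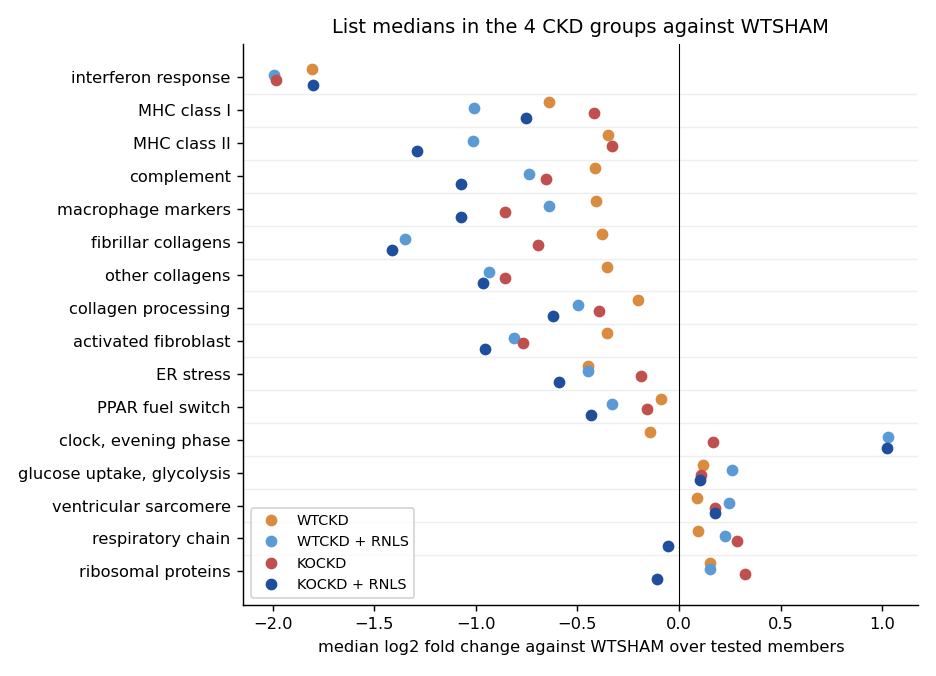
Median log2 fold change against WTSHAM (x axis) over the tested members of 16 gene lists (rows) in the 4 CKD groups, 1 point per group, all set against the same 3 sham libraries. For the evening clock KOCKD + RNLS (1.02) and WTCKD + RNLS (1.03) lie together and apart from KOCKD (0.17), for interferon genes all 4 groups lie at -1.80 or below, and for the respiratory chain KOCKD + RNLS is the group nearest to 0.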

How the data were processed

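Heart RNA of male mice was sequenced in 15 libraries, and the authors deposited raw read counts and FPKM per gene for each library. Per the submitters' processing notes, Trimmomatic, HISAT2, HTSeq, Cufflinks and DESeq2 were used. The study's methods name mm9 and the notes name GRCm39, so no coordinates of the counted genes are given, and whether counting used strand was not given in the sources used here. Close copies of a gene may therefore share counts, and the length per gene behind the deposited FPKM is that of the authors' annotation. Groups came from the sample labels. Counts were tested with edgeR 4.0.16 (R 4.3.3, limma 3.58.1; TMM scaling, quasi-likelihood, all 15 libraries, group as the only term), over genes with 10 or more counts in 3 or more of the 6 libraries. DESeq2 1.42.0, other scalings and filters, a replicate block and the omission of each library were alternatives. The fit was tested on simulated data. FPKM was used only for levels between genes. Named genes were the 12 largest rises and 12 largest falls (adjusted p under 0.05, mean log2 CPM over 1, no overlap), key genes of the lists, and the 3 largest changes per list and direction. A few genes that the rule names are not reported here. Members and lists were chosen with earlier results of these data known. CPM used TMM-scaled library sizes, and log2 CPM a prior count of 2. Depth ran from 10480788 to 13424078 counts per library.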

Additional observations from a re-analysis of the deposited data

Results flagged for a closer look

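For 6 named genes the difference from sham was tested to differ between the genotypes, by the direct contrast of KOCKD + RNLS with WTCKD + RNLS, the wild type with CKD and the same virus, in the quasi-likelihood test of edgeR, with p-values adjusted after Benjamini and Hochberg over all genes. Both groups are set against the same sham libraries, which cancel in this contrast. Wdfy1, which carries a WD repeat and a FYVE domain, was at 6.58, 5.799 and 8.104 CPM in sham, 7.38, 23.9 and 28.3 in KOCKD + RNLS and 6.67, 5.66 and 5.97 in WTCKD + RNLS, so that 1 KOCKD + RNLS library lay within the sham range, and the log2 difference was 1.69 (adjusted p = 0.0398). Xaf1, an interferon-inducible partner of the apoptosis inhibitor XIAP, was at 9.25, 9.09 and 7.96 CPM in WTCKD + RNLS, each below every KOCKD + RNLS value, with a difference of 1.65 (adjusted p = 0.0252). It was at 18.9, 10.7 and 10.003 CPM in KOCKD, so that the level differed between the knockout groups as well (1.06, adjusted p = 0.0172).

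Fam81a differed by 1.54 (adjusted p = 0.0394), with KOCKD + RNLS the higher group. Camk2b, a calcium and calmodulin dependent kinase, was at 21.1, 27.01 and 27.3 CPM in KOCKD + RNLS and 15.8, 15.95 and 16.99 in WTCKD + RNLS (0.63, adjusted p = 0.036). Fbxo32 was at 238, 263 and 236 CPM against 182, 172 and 190.5 (0.44, adjusted p = 0.0462). Eno3 was the one with the lower level in the knockout, at 1195, 977 and 924 CPM against 1655, 1996 and 1646 (-0.77, adjusted p = 0.0158). The knockout and wild-type mice came from different sources, and genotype and origin cannot be told apart.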

How the results depend on the processing

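The lower genes outnumbered the higher ones under all 15 other settings. Without 1 library the calls numbered 710 to 1479 (higher 260 to 615, lower 450 to 864), and gene lists with over 50% of their members called in 1 direction, 10 in the reported fit, numbered 4 to 11. With the atrial covariate the calls were 839 (331 higher, 508 lower) and the lists 3. DESeq2 called 733 higher and 926 lower, the length offsets 762 and 984, and the fit to the 6 libraries alone 565 and 781. Of 131 called genes that are named, DESeq2 lost 0, the fits without 1 library 11 to 38 and the atrial covariate 42, and no called gene turned its direction in any setting. The cause of these losses was not tested, though the fits without 1 library hold fewer samples.

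The replicate numbers did not pair the samples, since the deviations of same-numbered KOCKD + RNLS and WTSHAM libraries correlated at -0.12, -0.13 and -0.007. With the replicate number as a block (replicate block) 1338 genes were called, 559 higher and 779 lower, and Acta1, not called, turned to 0.033.

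Against sham, the genes called in WTCKD ranged from 189 (without WTSHAM 2) to 403 without 1 library and were 576 with DESeq2. Those in KOCKD ranged from 750 to 2063 and those in WTCKD + RNLS from 450 to 1465. The mean distance of KOCKD + RNLS was 1.66 over the 500 genes of highest variance, 0.548 with a prior count of 0.5, and 0.480 to 0.549 without 1 sham library. KOCKD had 1.47, 0.530 and, without WTSHAM 1, 0.525 (exact p = 0.2, 0.8 and 0.8).

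Values that turned their sign were all of genes not called or of lists with few calls. With the atrial covariate the median of glycolysis was -0.014, that of atrial markers 0.50, Nr1d1 0.082 and Nppa 1.88 (adjusted p = 0.0263). With length offsets Nppb was 0.059 and Acta1 0.021. Without 1 library the range was -0.74 to 0.051 for the atrial median, -0.48 to 0.27 for Nr1d1, -0.90 to 0.051 for Nppa, -0.24 to 0.23 for Nppb, -0.37 to 0.64 for Acta1, -0.54 to 0.10 for Xaf1 and -4.01 to 0.50 for Hspa1a, whose positive value came without WTSHAM 1. With 3 libraries a group and a median standard error of 0.139 on the log2 scale, small differences were not detectable at this depth for many genes.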

Other observations

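A few genes of hormone signalling and of NAD and redox metabolism were called. Of 19 tested genes of the renin-angiotensin and catecholamine systems 1 was higher and 2 lower, of 19 of NAD synthesis and sirtuins 1 was higher and 1 lower, and of 24 antioxidant genes 3 were higher and 2 lower, against 4.88% of all genes higher and 6.61% lower. Agt, angiotensinogen, was at 8.41, 7.23 and 7.96 CPM in sham and 3.57, 3.88 and 2.71 in KOCKD + RNLS (log2 fold change -1.21, adjusted p = 0.00451) and Agtr1a, the receptor of its product angiotensin II, at 37.9, 55.2 and 41.99 and 64.7, 67.2 and 79.9 (0.65, adjusted p = 0.00804). Nampt, which makes the NAD precursor nicotinamide mononucleotide, was at 350.2, 299 and 265 CPM against 433, 403 and 389.8 (0.42, adjusted p = 0.0122), and Nmrk2, a kinase of the nicotinamide riboside route in muscle, at 9.58, 5.799 and 3.09 against 2.52, 2.56 and 1.96 (-1.38, adjusted p = 0.0393). Gpx3, the glutathione peroxidase of plasma, was at 379, 289.7 and 461 CPM against 134, 180.4 and 168 (-1.23, adjusted p = 0.0178). Nnt, a mitochondrial transhydrogenase, was at 677, 561 and 677 CPM in sham and 1090.3, 972 and 818 in KOCKD + RNLS (0.59, adjusted p = 0.00197), with all adjusted p-values here from edgeR. Of 6 tested genes of a list of mouse strain variants, 2 were higher and 1 lower against sham. Gbp10 had the lowest estimate of that list (-3.42) and Wdfy1 the highest (1.53). The part of mouse background in these changes was not tested. Nmrk2 and Gpx3 each lost their call without KOCKD + RNLS 1, 2 or 3, Nmrk2 also without WTSHAM 1 or 2 and Gpx3 without WTSHAM 3, and Nampt lost its call without WTSHAM 3 or KOCKD + RNLS 1. Gpx3 and Nampt were not called with the atrial covariate either.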
